A study of Mus musculus with 3 samples.

Results

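The potassium channel genes were taken as the protein-coding genes of the mouse annotation whose symbol starts with Kcn. There were 94 of them among 21938 protein-coding genes, of which 77 encode pore-forming subunits and 17 encode auxiliary subunits or regulators. The rule used names only and no peak or hotspot value, although the family was proposed with earlier results of these data known. DNase-seq, in which the enzyme DNase I cuts open chromatin in preference to closed, was carried out on MEL cells, a murine erythroleukaemia line of immortalised red cell precursors. All 3 libraries had been kept in zinc dichloride for 24 hours, at a dose given as 125 in a unit whose prefix is unreadable in the labels, and no untreated library was analysed here. Biological replicate 1 gave 2 libraries, labelled as technical replicates 1 and 3, and 1 pair of lists. Biological replicate 2 gave 1 library and 1 pair of lists. A pair holds a list of peaks, each 150 bp wide with a score from the authors, and a list of hotspots, which are stretches of varying width enriched in cuts.

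Potassium channels let potassium leave or enter cells along its electrochemical gradient. Most Kcn genes are best known from nerve and muscle, where they set the resting potential and end action potentials. In red cells the channel encoded by Kcnn4, known as the Gardos channel, opens on calcium entry and lets potassium and water leave, which shrinks the cell. Kcna3 encodes Kv1.3, the voltage-gated channel best known from T lymphocytes. Many genes of this kind that are read in neurons are held silent elsewhere by the repressor REST, which binds a long DNA element.

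The lists differ in length, with 303597 peaks in replicate 1 and 106279 in replicate 2 on the numbered and sex chromosomes. Read counts are not given in the files, so depth is unknown. A score ranks peaks only within its own list, and with 1 list per replicate no standard deviation exists. Marker genes were examined against the label. Promoter peaks were present at all 8 erythroid markers in replicate 1 and at 6 in replicate 2, against 1 and 1 of 4 T cell markers, 2 and 1 of 4 neuron markers, and 0 and 0 of 3 muscle markers, where 63.6% and 49% of all protein-coding genes had one. The neuron markers with a peak in replicate 1 were Syp, which had one in both lists, and Rbfox3. Open chromatin at a promoter was read as accessibility only, since no RNA was measured. A promoter with no peak in a list is called closed there, which at unknown depth means only that no peak was detected. A hotspot may still be present. In a bulk library, fewer cells with an open site and less cutting per cell cannot be told apart.

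The first 3 sequences show the sites on which the contrast between Kcnn4 and Kcna3 rests. They are the upstream promoter peak of Kcnn4 (chr7:24369816-24369965, score 84 in replicate 1), its upstream distal peak (chr7:24363116-24363265, found at the same position in both lists), and the stretch before the RefSeq start of Kcna3 (chr3:107035912-107036161), where neither list had a peak. All are on the + strand of GRCm38, the build called mm10, written 5′ to 3′. In the 2 Kcnn4 sequences capitals mark matches on either strand to short motifs of the blood factors GATA, KLF (searched as CCACACCC), NF-E2, RUNX (searched as TGTGGT) and PU.1 and to the metal response element. In the Kcna3 sequence, from RefSeq, they mark CpG dinucleotides, the paired bases that are crowded in CpG islands.
Kcnn4 promoter peak: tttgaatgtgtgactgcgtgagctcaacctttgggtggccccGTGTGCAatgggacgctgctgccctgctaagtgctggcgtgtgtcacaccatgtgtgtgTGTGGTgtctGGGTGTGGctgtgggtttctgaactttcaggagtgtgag
Kcnn4 upstream distal peak: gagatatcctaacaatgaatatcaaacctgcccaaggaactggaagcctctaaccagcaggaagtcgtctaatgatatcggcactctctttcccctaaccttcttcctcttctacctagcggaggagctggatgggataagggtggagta
Kcna3 upstream of the start: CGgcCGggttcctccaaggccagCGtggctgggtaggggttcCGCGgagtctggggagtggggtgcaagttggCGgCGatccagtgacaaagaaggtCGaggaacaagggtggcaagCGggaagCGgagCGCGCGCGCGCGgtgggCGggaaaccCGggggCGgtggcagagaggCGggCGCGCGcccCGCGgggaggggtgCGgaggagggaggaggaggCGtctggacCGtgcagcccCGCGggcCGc
The Kcnn4 promoter peak held 1 KLF match, 1 RUNX match and 1 metal response element, which stand in 1.93%, 10.2% and 32.3% of all replicate 1 promoter peaks. The upstream distal peak held none of these motifs. The Kcna3 stretch was not marked for them, although it also holds a match to the metal response element (gggtgca, read on the other strand). The marks thus do not compare the motifs of the Kcnn4 and Kcna3 sequences. The 250 bases before Kcna3 held 31 CpG dinucleotides, against 4 in the 150 bases of the Kcnn4 promoter peak.

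The next pair are the promoter peaks with the highest scores among the family in replicate 2, at Kcnn3 (chr3:89519956-89520105, + strand, score 68) and Kcnab3 (chr11:69326056-69326205, + strand, score 65). Both lie in intergenic sequence just before the gene. Capitals mark CpG dinucleotides, of which they hold 8 and 7.
Kcnn3 promoter peak: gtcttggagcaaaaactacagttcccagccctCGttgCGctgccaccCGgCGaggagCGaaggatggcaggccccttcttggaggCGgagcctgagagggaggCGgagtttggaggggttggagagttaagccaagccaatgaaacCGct
Kcnab3 promoter peak: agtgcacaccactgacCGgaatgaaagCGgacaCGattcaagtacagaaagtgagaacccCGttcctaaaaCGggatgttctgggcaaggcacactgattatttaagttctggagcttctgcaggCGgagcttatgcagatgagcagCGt

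The last set are distal peaks of replicate 1 that hold the REST element, searched on both strands as CAGCACC and GGACAG with any 2 bases between them and marked in capitals. They lie near Kcnk9 (chr15:72568656-72568805, − strand), Kcnh2 (chr5:24357556-24357705, − strand) and Kcnn4 (chr7:24359396-24359545, + strand), each printed on the strand of the gene.
near Kcnk9: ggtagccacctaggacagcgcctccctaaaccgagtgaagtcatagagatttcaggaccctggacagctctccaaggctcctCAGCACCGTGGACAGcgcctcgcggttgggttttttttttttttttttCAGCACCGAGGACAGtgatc
near Kcnh2: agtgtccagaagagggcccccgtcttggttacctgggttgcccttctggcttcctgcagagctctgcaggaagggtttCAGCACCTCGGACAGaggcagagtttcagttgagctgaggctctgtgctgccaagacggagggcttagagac
near Kcnn4: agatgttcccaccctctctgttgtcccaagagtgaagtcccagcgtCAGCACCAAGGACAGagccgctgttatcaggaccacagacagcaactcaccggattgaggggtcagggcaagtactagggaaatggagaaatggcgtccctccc
The peak near Kcnk9 holds 2 copies of the element and the other 2 peaks hold 1 each.

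Most potassium channel genes had no peak within 1 kb of a start, although with a window of 2000 bp 53 of 94 had one in replicate 1 and 22 in replicate 2. A promoter peak, one that overlapped the stretch within 1 kb of any annotated transcript start by at least 1 bp, was present at 35 of the 94 genes in replicate 1 (37.2%), where 63.6% of all protein-coding genes had one. In replicate 2 it was present at 13 of 94 (13.8%), against 49% of all protein-coding genes. All 13 were among the 35, so 22 genes were called in replicate 1 alone (14.7% of all genes), 0 in replicate 2 alone (0.123% of all genes), and 59 in neither list. Of the genes called in replicate 1, 37.1% of the potassium channel genes and 76.9% of all genes were also called in replicate 2. With the replicate 1 list held to as many of its highest-scoring peaks as replicate 2 has, 23 of 94 genes were called, against 54.6% of all genes. Hotspots gave nearly the same picture, with 37 and 15 of 94 genes having a promoter hotspot, against 64.3% and 49.3% of all genes. Hotspots at the ceiling of the authors' −log10 q value (100) stood at 32 and 8 of 94, against 59.4% and 23.1%. Kcnd1 and Kcng3 had a promoter hotspot in both lists and a promoter peak in neither.

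Where a promoter was open, its peak tended to rank lower than elsewhere. The highest promoter peak score per called gene had a median of 99 in replicate 1 (range 38 to 146), against 135 over all called genes, and of 41 in replicate 2 (range 12 to 68), against 47. The 8 genes with the lowest scores in replicate 1 (Kcnma1, Kcnk16, Kcnu1, Kcnmb2, Kcnt1, Kcns2, Kcnq3 and Kcnh4) scored 38 to 48 there, and none of the 8 was called in replicate 2.

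**Figure D1:**
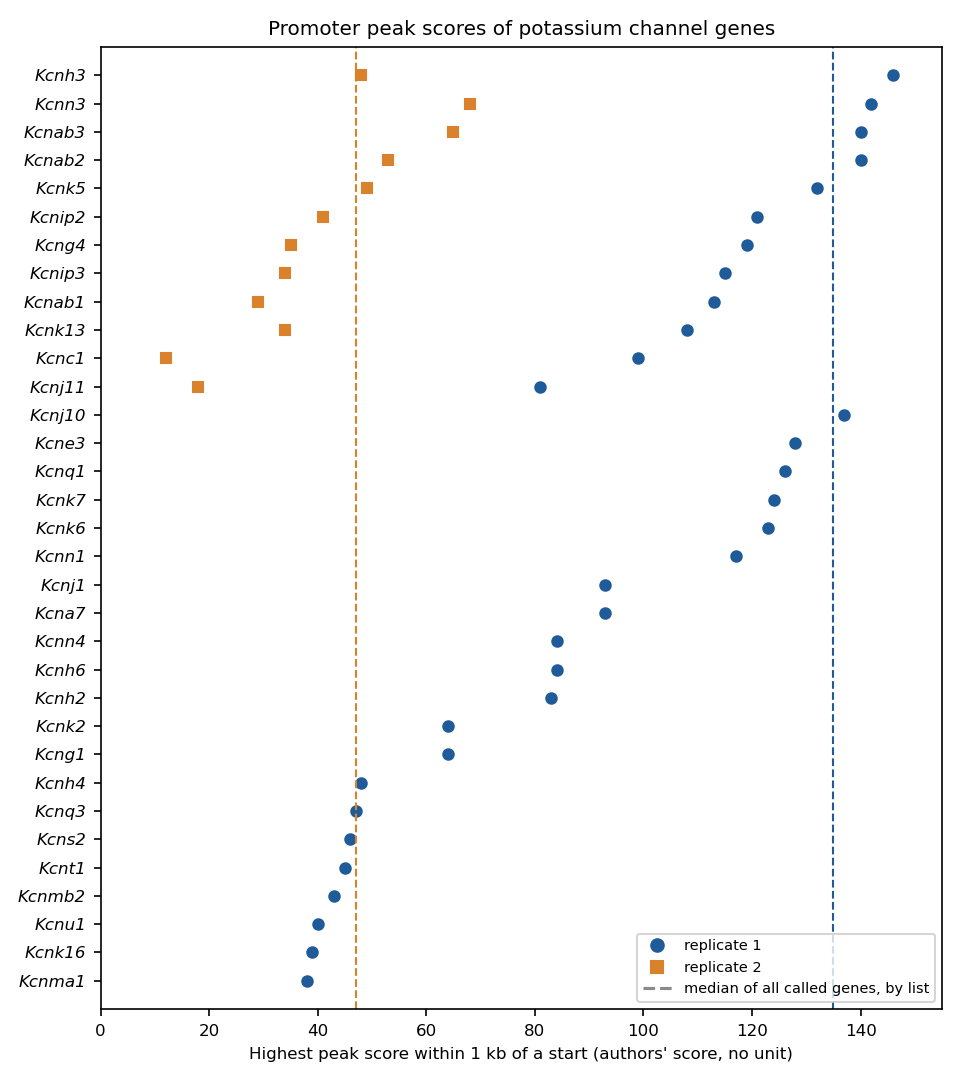
Highest peak score within 1 kb of a start for 33 of the 35 potassium channel genes with a promoter peak, in replicate 1 (circles) and replicate 2 (squares), on the authors' score (horizontal axis, no unit); dashed lines give the median over all called genes of the same list. The genes called in both lists stand above, and most circles lie left of the line at 135.

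The strongest promoters belonged to few genes. Kcnn3, which encodes a small-conductance calcium-activated channel, scored 142 in replicate 1 and 68 in replicate 2, where 98.8% of that list's peaks scored lower. Kcnab3 and Kcnab2, cytoplasmic beta subunits of the shaker-type channels, each scored 140 in replicate 1, and 65 and 53 in replicate 2. At Kcnab2 the 53 lay 29381 bp inside the gene, and near the 5′ end, close to a start of Nphp4, replicate 2 reached 36. Replicate 1 had a Kcnab2 peak of 140 near both places. Kcnk5, an acid-sensitive 2-pore-domain channel known from kidney, scored 132 and 49. These 4 were above the all-gene median of 47 in replicate 2, as was Kcnh3, an ether-à-go-go-like channel of the forebrain, with 146 and 48. Kcnip2, a calcium-binding partner of the Kv4 channels, scored 121 and 41. Kcng4, a silent subunit that modifies Kv2 channels, scored 119 and 35. Kcnip3, which also acts as a calcium-dependent transcriptional repressor, scored 115 and 34. Kcnk13 scored 108 and 34, and Kcnab1 113 and 29. The last pair called in both lists had weak peaks in replicate 2. Kcnj11, the pore of the ATP-sensitive potassium channel, scored 81 and 18. Kcnc1, the fast channel Kv3.1, scored 99 and 12.

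Several genes scored high in replicate 1 but lacked a promoter peak in the other list. Kcnj10, a glial inward rectifier, scored 137. Kcne3, a single-span subunit that keeps Kcnq1 channels open in epithelia, scored 128, and Kcnq1 itself scored 126. Kcnk7 scored 124, Kcnk6 123 and the small-conductance channel gene Kcnn1 117. Kcna7 and the kidney inward rectifier gene Kcnj1 each scored 93, and Kcnn4 and Kcnh6 each scored 84. For Kcnj10 the score of 137 exceeded that of 95.8% of the list, and the nearest replicate 2 peak lay 5145 bp from a start. The nearest replicate 2 peak lay 46037 bp away at Kcne3, 29522 bp at Kcnq1 and 1358 bp at Kcnn1. Replicate 2 thus had a peak just outside the 1 kb window at Kcnn1, and none nearby at Kcne3 and Kcnq1. That Kcnn1 peak lay before the 5′ end, where the replicate 1 promoter peak scored 62. The Kcnn1 score of 117 came from another site, 6228 bp inside the gene.

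Among the calcium-activated channels, 3 of 4 Kcnn genes were called in replicate 1 and 1 (Kcnn3) in replicate 2, and Kcnn2 had neither. The large-conductance group of Kcnma1, Kcnt1, Kcnt2 and Kcnu1 had 3 of 4 and 0 of 4, with weak scores of 38 for Kcnma1 (the BK channel), 45 for the sodium-activated Kcnt1 and 40 for the sperm channel gene Kcnu1, and no peak at Kcnt2. All of these counts rest on few genes.

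The voltage-gated channels were closed for the most part. Of 8 shaker-type Kcna genes, 1 (Kcna7) was called in replicate 1 and 0 in replicate 2, and the 7 without included Kcna1, Kcna10, Kcna2 and Kcna3. Of the fast Kcnc channels, Kcnc1 was called in both lists and Kcnc2 in neither. All 3 Kcnd genes, which carry the A-type current, had no promoter peak, although Kcnd1 had a promoter hotspot in both lists. Of 10 silent modifier genes (Kcnf, Kcng, Kcns and Kcnv), 3 and 1 were called, and the 7 without included Kcnf1, Kcng2, Kcng3 and Kcns1. Of these, Kcng3 had a promoter hotspot at the ceiling in both lists. Of 8 ether-à-go-go genes, 4 and 1 were called, leaving Kcnh1, Kcnh5, Kcnh7 and Kcnh8. Of the Kcnq genes, which carry the M current and cardiac repolarisation, Kcnq1 and Kcnq3 were called in replicate 1 alone and Kcnq5 in neither list.

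The inward rectifiers had one of the lowest shares of the larger groups. Of 15 Kcnj genes, 3 (Kcnj1, Kcnj10 and Kcnj11) were called in replicate 1 and 1 in replicate 2, and the 12 without included Kcnj12, Kcnj13, Kcnj14 and Kcnj15. Of 14 Kcnk genes, which carry leak currents, 6 and 2 were called, and the 8 without included Kcnk1, Kcnk10, Kcnk12 and Kcnk15. Over all pore-forming genes the counts were 28 of 77 (36.4%) and 8 of 77 (10.4%).

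The auxiliary genes were called in 7 of 17 cases in replicate 1 (41.2%) and 5 of 17 in replicate 2 (29.4%). The Kcnab genes were the one group with a promoter peak at every gene, at 3 of 3 in both lists. At Kcnab1 no peak lay within 1 kb of the gene's 5′ end in either list. Of 4 Kcnip genes, Kcnip2 and Kcnip3 were called in both lists and Kcnip1 and Kcnip4 in neither. Of 5 Kcne genes only Kcne3 was called, in replicate 1, while Kcne1, Kcne1l, Kcne2 and Kcne4 had no peak. Of 4 Kcnmb genes, which modulate the BK channel, Kcnmb2 was called in replicate 1 with a score of 43, and Kcnmb1, Kcnmb3 and Kcnmb4 had none. Kcnrg, a regulator with the assembly domain of voltage-gated channels, had none. Of the auxiliary genes called in replicate 1, 71.4% were called in replicate 2, against 28.6% of the pore-forming genes. With 7 and 28 genes behind these shares, the difference was not tested.

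**Figure D2:**
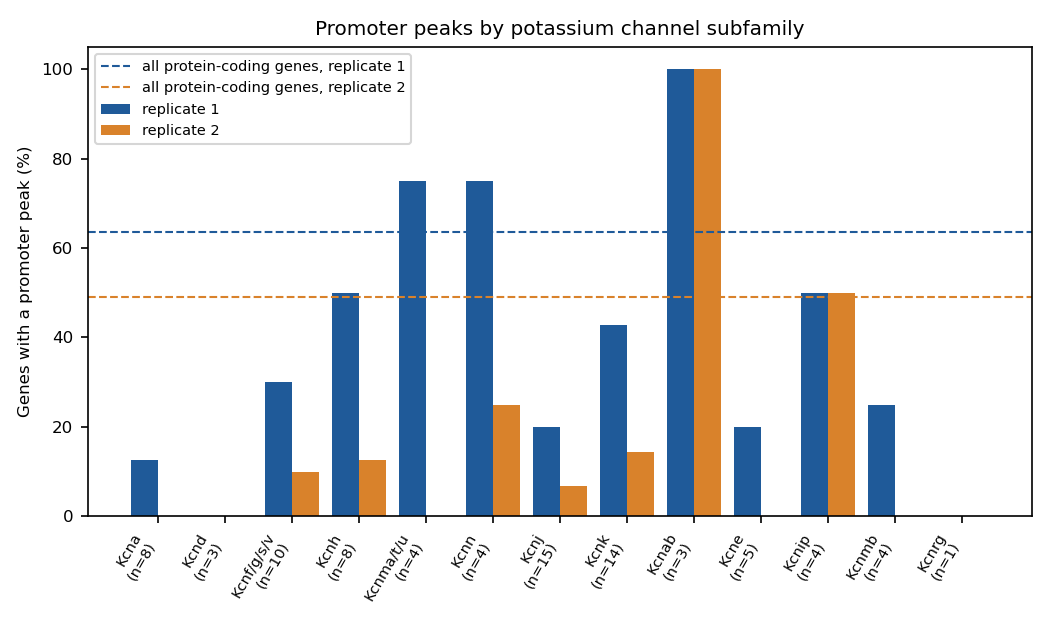
Share of genes with a promoter peak (vertical axis, percent) in the subfamilies drawn, in replicate 1 (left bars) and replicate 2 (right bars), with the number of genes under each name; dashed lines give the shares over all protein-coding genes, 63.6% and 49%. The bars of Kcnab reach 100% in both lists, and Kcnd and Kcnrg have none.

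Many of the called genes had a peak near an internal annotated start and none within 1 kb of the gene's 5′ end. Several of these starts, as at Kcnab1, Kcnt1 and Kcnu1, belong to transcripts not annotated as protein-coding. A peak spanned an annotated start at 14 of the 35 genes called in replicate 1 and 4 of the 13 in replicate 2. Use of these starts was not measured. Within 1 kb of the 5′ end alone, 23 genes had a peak in replicate 1 and 8 in replicate 2, against 57% and 43.7% of all genes. The 12 genes that lost their replicate 1 call included Kcnab1, Kcnc1, Kcng1, Kcnip2, Kcnk2, Kcnma1, Kcnmb2, Kcnq3, Kcnt1 and Kcnu1. At Kcnip2 the peak of score 121 lay 3711 bp inside, in an intron, and at Kcnab1 the peaks of scores 113 and 29 lay 78886 bp inside in both lists. For these genes the open site lay far from the annotated 5′ end.

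Kcnn4 (chr7:24370263-24386690, + strand) had an open promoter in replicate 1 and none in replicate 2. Replicate 1 had 3 promoter peaks, with scores of 84 (373 bp before the 5′ end), 78 (73 bp before it) and 66 (227 bp after it, in a coding exon). They lay in a single hotspot of 1029 bp, at the ceiling of 100 on the −log10 q scale. In replicate 2 the nearest peak lay 3178 bp from a start. The 3 scores rank above 66.6%, 62.2% and 52.7% of the replicate 1 list, most of whose peaks lie outside promoters. Among promoters the highest, 84, lay below the median of 99 over the called potassium channel genes and of 135 over all called genes.

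Stronger sites lay around the Kcnn4 promoter, and several were in both lists. Replicate 1 had 36 distal peaks of Kcnn4 and replicate 2 had 6, where distal means within 50 kb of a start of the gene and not within 1 kb of a start of any protein-coding gene. A peak 7073 bp before the 5′ end scored 132 and 48, and another site, 5293 bp before it, scored 114 in replicate 1 and 46 in replicate 2 (chr7:24364876-24365025). Sites 34153 bp before (108 and 36) and 36887 bp after the 5′ end (98 in replicate 1 and 27 in replicate 2) also overlapped between the lists. A replicate 2 peak of score 51, 3327 bp after the 5′ end, overlapped none of replicate 1. A strong replicate 1 peak, 4007 bp after the 5′ end with score 141, had no counterpart in replicate 2.

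Kcna3 (chr3:107036169-107038070, + strand) was closed in both lists. No promoter peak or hotspot was present. The nearest replicate 1 peak lay 4324 bp from the start with a score of 36, and the nearest replicate 2 peak 58007 bp away with a score of 22. Replicate 1 had 9 distal peaks, with scores of 18 to 51, and replicate 2 had 0. Of these 9, 6 were also counted for the neighbouring Kcna2. The promoter is rich in CpG, with an observed to expected ratio of 0.781 in the 2000 bp around the 5′ end. Cd3e, the T cell marker with a promoter peak, scored 79 and 20.

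**Figure D3:**
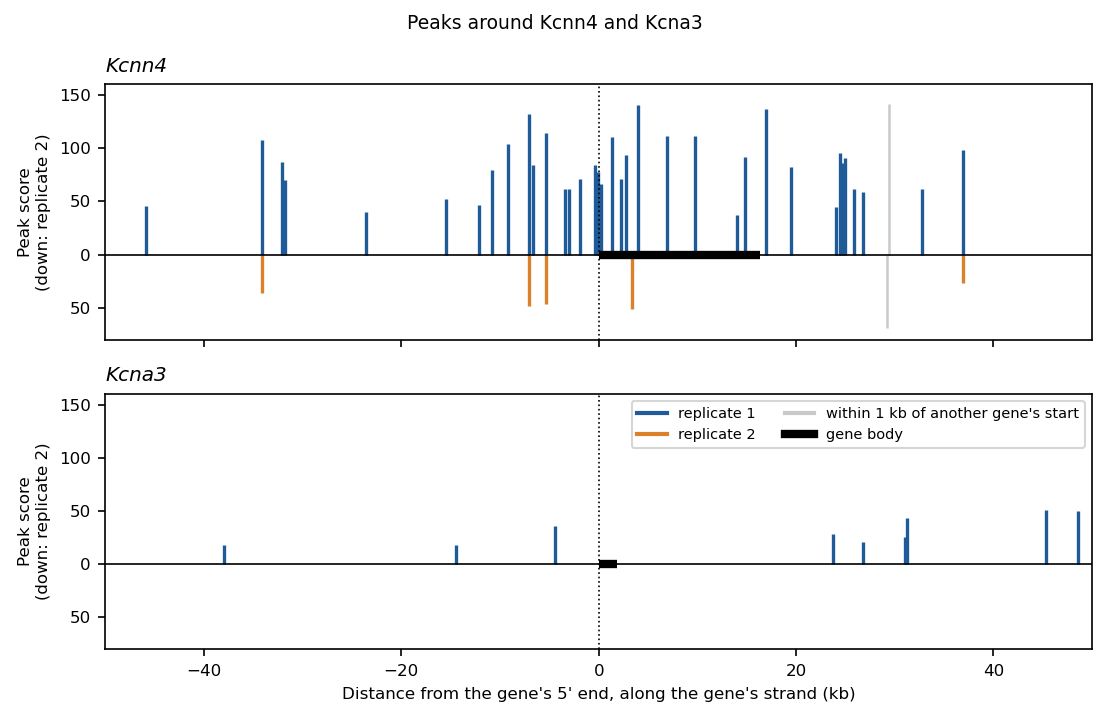
Peaks within 50 kb of the 5′ end of Kcnn4 (above) and Kcna3 (below), by distance along the strand of the gene (horizontal axis, kb), with the peak score as line height, upwards for replicate 1 and downwards for replicate 2; grey lines are peaks at the start of another gene and the thick bar is the gene. One site of Kcnn4 is not drawn. Kcnn4 has lines above 100 on both sides of its start, and Kcna3 has 9 lines of at most 51, all in replicate 1.

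CpG-rich promoters, which are open in most cells, were mostly closed in this family. A 5′ end was called CpG-rich when the 2000 bp around it had an observed to expected CpG ratio of at least 0.6 and a C+G share of at least 50%. This held for 24 potassium channel genes (25.5%) and 29.8% of all protein-coding genes. Of the 24, 8 were called in replicate 1 (33.3%) and 4 in replicate 2 (16.7%), against 84.1% and 73.5% of all CpG-rich genes. Of the 70 CpG-poor genes, 27 (38.6%) and 9 (12.9%) had one, against 54.9% and 38.7%. In both lists the family lay farther below all genes among CpG-rich than among CpG-poor 5′ ends.

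Many of the closed CpG-rich promoters had a peak just outside the 1 kb window. Of the 16 CpG-rich potassium channel genes with no promoter peak in replicate 1, 9 (56.2%) had their nearest peak 1 to 2 kb from a start, against 23.3% of the 1037 such genes overall. Among the 9 were Kcnc4, Kcnd2, Kcnd3, Kcng3, Kcnh1, Kcnk12, Kcnk15 and Kcnmb4. The median distance to the nearest peak was 1637 bp, against 3949 bp overall. At Kcnk12, a silent 2-pore-domain channel, that peak scored 142 in replicate 1, 1389 bp from the start, and 47 in replicate 2, 1409 bp away. At Kcng3 it scored 112 and 31, 1101 and 1221 bp away. The others ranged from 19 at Kcnmb4 to 101 at Kcnh1 in replicate 1, and none of those 7 had a replicate 2 peak within 2 kb. In replicate 2, 3 of 20 closed CpG-rich genes (15%) had a peak 1 to 2 kb away, against 9.82% overall. Accordingly, a window of 2000 bp raised the counts of called genes to 53 and 22 of 94 (56.4% and 23.4%), nearer to the 69.9% and 52.4% of all genes.

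Counted by distance from the 5′ end, the 24 CpG-rich genes had 0.333 replicate 1 peaks per gene within 1 kb and 0.583 from 1 to 2 kb, both sides together. Over all CpG-rich genes these values were 2.33 and 1.23, so the order was the reverse. The values of the 24 genes rest on only 8 and 14 peaks. The 70 CpG-poor genes had 0.471 and 0.4, against 1.03 and 0.556. In replicate 2 the CpG-rich genes of the family had 0.167 in each zone, from 4 peaks each, against 2.06 and 0.727.

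**Figure D4:**
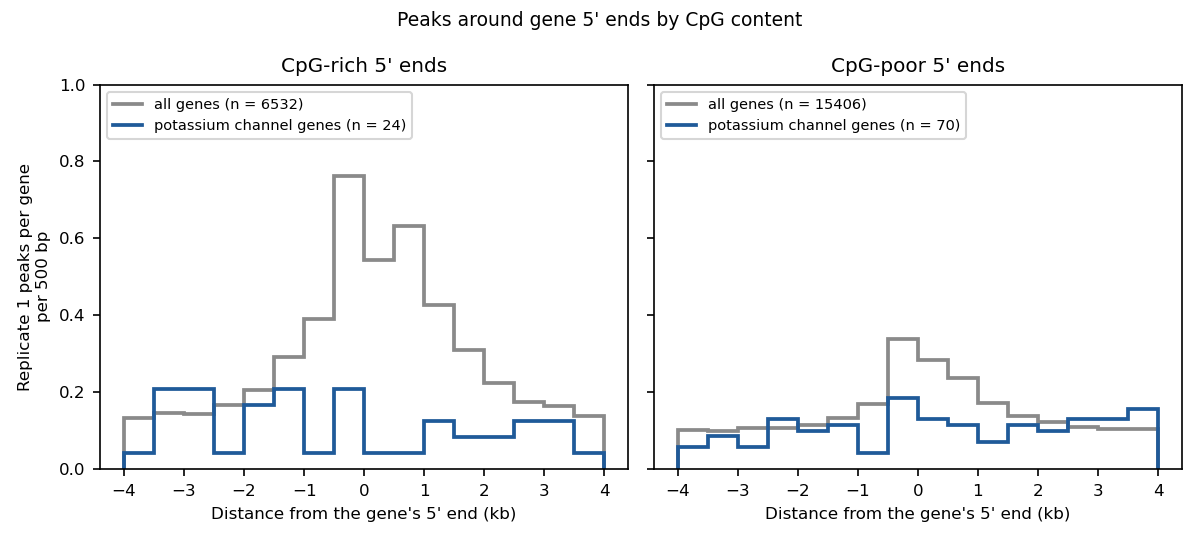
Replicate 1 peaks per gene (vertical axis) in 500 bp steps of distance from the gene's 5′ end (horizontal axis, kb), for CpG-rich (left) and CpG-poor genes (right); the dark line is the potassium channel genes and the grey line all protein-coding genes. The grey line peaks at 0.763 per gene just before CpG-rich 5′ ends, where the dark line is at 0.208, the same as its value 1 to 1.5 kb upstream.

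A shared promoter was rare in the family. Only Kcnab2 had the start of another protein-coding gene (Nphp4) within 1 kb of a start (1.06% of the family, against 14.6% of all genes). With such genes left out, 34 of 93 and 12 of 93 potassium channel genes were called, against 59.1% and 43.5% of the remaining genes.

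Distal peaks around the family were about as frequent as around other genes. The median number within 50 kb of a start was 15 in replicate 1 and 4 in replicate 2, against 18 and 4 over all protein-coding genes. Per 100 kb of window the medians were 13 and 3.85, against 15.6 and 3.83. The number ranged from 0 to 70 and from 0 to 24. No distal peak was found for 3 genes in replicate 1 (5.92% of all genes had none) and 14 in replicate 2 (17% of all genes). The 3 were Kcnh7, Kcnj3 and Kcnq5, whose nearest replicate 1 peaks lay 50209, 129305 and 73757 bp from a start. Genes with a promoter peak in replicate 1 had a median of 21 distal peaks there, and the 59 without had 12, while over all genes the medians were 21 and 7.

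By count, Kcnn3 had the most distal peaks in both lists, 70 and 24. Its strongest in replicate 2 (score 53) lay 4514 bp before the 5′ end and overlapped a replicate 1 peak of score 140. Windows are wider for genes with starts far apart, and per 100 kb Kcnn3 had 35 and 12. Kcnmb1 (45), Kcnj10 (37) and Kcnj9 (36.6) stood above it in replicate 1. Kcnj10 (15), Kcnj9 (13.8), Kcnk5 (13.2) and Kcnip2 (12.3) did so in replicate 2. Kcnab1 had 9.87 and 5.81 per 100 kb. The counts follow. Kcnip1, with no promoter peak, had 59 and 10, and Kcnmb1 had 45 and 9, of which 33 and 7 were counted for both neighbours. A replicate 2 peak of Kcnip1, 38178 bp before its 5′ end, scored 82, the highest distal score of the family in that list. Kcnab1 had 34 and 20. Kcnj12, a muscle inward rectifier, had 38 and 10. Kcnj9 and Kcnj10 had 37 each in replicate 1 and 14 and 15 in replicate 2, sharing 35 and 14. Kcnk5 had 35 and 18, Kcnip2 35 and 15, and Kcnk3, an acid-sensitive leak channel with no promoter peak, had 30 and 16. The strongest replicate 1 peak of Kcnk3 scored 150, the highest score found in that list, and lay inside Slc35f6, 62760 bp after the 5′ end of Kcnk3. Which gene any distal site acts on was not measured.

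**Figure D5:**
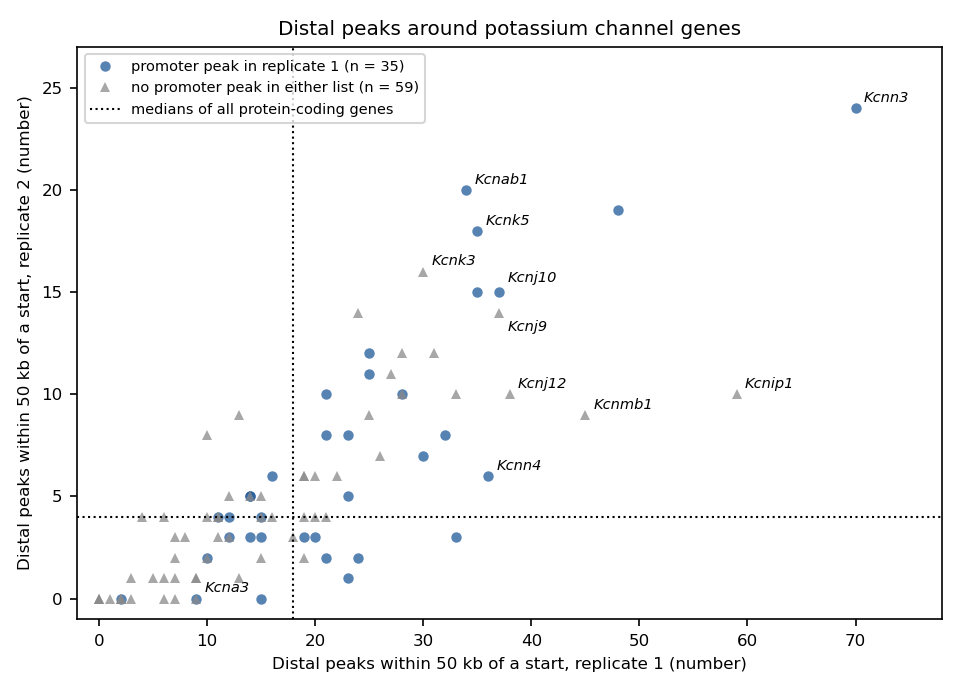
Number of distal peaks within 50 kb of a start for each of the 94 potassium channel genes in replicate 1 (horizontal axis) and replicate 2 (vertical axis), with circles for genes with a promoter peak in replicate 1 and triangles for the others; dotted lines are the all-gene medians of 18 and 4. Kcnn3 stands farthest out at 70 and 24, and Kcnip1 is a triangle at 59 and 10.

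The distal peaks were found again in the other list as often as elsewhere. Of 1611 distal peaks near the family in replicate 1, 21.1% overlapped a replicate 2 peak by at least 1 bp, the same share as for all protein-coding genes. Of 487 in replicate 2, 74.5% overlapped a replicate 1 peak, against 73.7%. At promoters the shares were 25.6% of 90 peaks in replicate 1, against 41.9%, and 80.6% of 31 peaks in replicate 2, against 63.4%. Peaks of a list can overlap each other, which held for 6.7% of the family's distal peaks in replicate 1 and 20.3% in replicate 2, so peaks are not all separate sites.

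The REST element was more frequent near the family than around all genes by count, with no test, and the matches in peaks lay in distal peaks. Within 50 kb of a start there were 13 elements in 12.6 Mb (1.04 per Mb), against 435 in 1340 Mb around all protein-coding genes (0.325 per Mb). Of the 13, 8 lay in a replicate 1 peak (61.5%) and 2 in a replicate 2 peak (15.4%), against 43.7% and 6.21% around all genes. Within 1 kb of the 5′ end, 3 of 94 genes held it (Kcnh4, Kcnk12 and Kcnt1; 3.19%), against 0.242% of all genes, and 0 of the 90 promoter peaks did (0.087% of all promoter peaks). Among distal peaks the share was 7 of 1611 in replicate 1 (0.435%, against 0.0777% of all distal peaks) and 2 of 487 in replicate 2 (0.411%, against 0.0319%). The gene Rest had promoter peaks of score 147 and 65, and its corepressor gene Rcor1 of 148 and 49.

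Of the sites printed above, the one near Kcnk9 was in both lists. It lies 22390 bp before the 5′ end of a gene with no promoter peak, and scored 67 and 18. The Kcnh2 site lies 6026 bp before that gene, which encodes the cardiac channel hERG, and scored 104 in replicate 1. The Kcnn4 site, 10793 bp before the 5′ end, scored 80. Sites in replicate 1 alone were also near Kcnab2 (score 47), Kcnd1 (53) and Kcnh1 (31). A match is a description of the letters, and binding of REST was not measured.

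GATA was among several motifs found in a lower share of the family's promoter peaks than of all promoter peaks in both lists. PU.1 was in a higher share of its replicate 1 promoter peaks. In distal peaks the PU.1 shares were close to those of all peaks (8.94% and 5.95%, against 9.17% and 5.84%). Promoter counts were small, and no motif difference was tested. The GATA motif (AGATAA or TGATAA) was in 7.78% of 90 promoter peaks in replicate 1, against 9.57% of all promoter peaks of that list, and in 0 of 31 in replicate 2, against 9.19%. In distal peaks GATA was in 14.3% and 14.6%, against 16.8% and 18%. RUNX was also in a lower share of distal peaks, 14.9% and 12.9%, against 15.7% and 13.4%. In promoter peaks RUNX was in 11.1% and 3.23%, against 10.2% and 8.22%. The PU.1 motif (GAGGAAGT) was in 10 of 90 promoter peaks in replicate 1 (11.1%, against 4.4%) and 0 of 31 in replicate 2 (against 2.17%). The metal response element, the site of the zinc sensor Mtf1, was searched as TGCNCNC, with N for any base. A pattern this short and loose matches many peaks, and binding of Mtf1 was not measured. The pattern was in 40% and 38.7% of promoter peaks, against 32.3% and 30.7%. In distal peaks it was in 28.9% and 24.8%, against 25.2% and 23.7%. The CTCF motif (CCA, AG and GGCA, with any 2 bases between each) was in 5.77% and 5.95% of distal peaks, against 4.31% and 3.72%.

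Genes that work beside these channels, in red cells or elsewhere, were examined next. Of 22 genes for red cell volume, sodium pumping and calcium entry, 20 were called in replicate 1 and 16 in replicate 2, where 63.6% and 49% of all protein-coding genes were. Of the 22, 17 are CpG-rich, a class called in 84.1% and 73.5% of cases over all genes. Piezo1, the mechanosensitive channel whose calcium entry opens the Gardos channel, scored 110 in replicate 1 and was not called in replicate 2. The store-operated calcium entry genes Orai1 and Stim1 scored 136 and 55, and 145 and 64. Atp1b1 and Stk39 had no promoter peak in either list. All 6 regulators of Kcnn4 were called in replicate 1 and 5 in replicate 2, including the calmodulin genes Calm2 (142 and 44) and Calm3 (145 and 50) and the histidine kinase gene Nme2 (147 and 61). Of 9 channel partners without a Kcn symbol, among them the sulphonylurea receptor genes Abcc8 and Abcc9, 2 were called in replicate 1 (Amigo1 with 90, Lrrc38 with 10) and 1 in replicate 2 (Amigo1 with 34).

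Other voltage-gated channel families were set beside this one. Of 14 sodium channel genes (Scn), 10 were called in replicate 1 (71.4%) and 3 in replicate 2 (21.4%). Of 26 calcium channel genes (Cacn), 18 (69.2%) and 10 (38.5%) were called. Over all protein-coding genes the shares were 63.6% and 49%, so both families lay above the first in replicate 1 and below the second in replicate 2. The potassium channel genes, at 37.2% and 13.8%, were below both in each list. The families were not matched in other respects. The median number of starts was 3 for Kcn, 3.5 for Scn and 7 for Cacn genes, and 25.5%, 21.4% and 38.5% were CpG-rich. In replicate 1, 10.5% of potassium channel genes with 1 start and 59.1% with 5 or more were called, against 34.2% and 88.2% of all genes. The median highest score in replicate 1 was 47 for the Scn genes and 98.5 for the Cacn genes, against 99 here. These differences between families were not tested, since genes are not replicates.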

How the data were processed

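The authors aligned reads to mm10, per the labels, with an aligner and a peak caller not given in the sources used here. Peaks carry a score deposited by the authors, a whole number whose meaning is not stated, used only within its list. Hotspots carry the −log10 of a q value deposited by the authors, from 1.3 to a ceiling of 100. The list of the whole series was read as biological replicate 1 (2 libraries), since the alignment behind it is named in the deposited text records of those libraries and not in that of biological replicate 2 (1 library). Starts came from GENCODE mouse release 21, sequences from GRCm38 and RefSeq, where 69 of the 94 genes had a promoter entry. Lists were counted separately with Python 3.11.15 and NumPy 2.4.6, after a check on simulated lists. No test was made, because all libraries form 1 group and genes are not replicates. Members, lists and comparisons were chosen with earlier results of these data known. Besides Kcnn4 and Kcna3, genes were named by rank: the 12 highest promoter scores in replicate 2, the 10 highest in replicate 1 among genes with none in replicate 2, the 6 with most distal peaks in each list, up to 4 genes with neither peak per subfamily, and genes with no distal peak. Genes at internal starts, with a peak 1 to 2 kb away, with the lowest scores, or with a REST element were named after their values were seen. Alternatives covered the window, distance, score threshold, list length, peak overlap and shared starts. Some genes and sequences are not reported here.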

Additional observations from a re-analysis of the deposited data

How the results depend on the processing

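Of 47 alternatives, 25 stayed within 1.5 times the value reported or gave the same sharing within its counting interval, and 22 moved. A window of 2000 bp gave 53 genes with a promoter peak in replicate 1, 22 in replicate 2 and 22 in both, and the gene's 5′ end alone gave 23, 8 and 8. Lists of the same length gave 23 genes in replicate 1, with a median of 4 distal peaks there. Genes called in at least 1 list ranged from 13 without replicate 1 to 35 without replicate 2, so replicate 1 decides that count. Hotspots at the ceiling gave 8 genes in replicate 2. Within 20 kb the median number of distal peaks was 7 and 2, within 100 kb 35 and 9, and among the highest-scoring 50% of peaks 7 and 1. Distal hotspots had medians of 7 and 1 within 20 kb and 30.5 and 8 within 100 kb. With 50% of each peak required to overlap, the shared distal peaks fell to 16.3% in replicate 1 and 55.6% in replicate 2. Counting overlapping peaks of a list as 1 site, an alternative chosen after seeing the data, left the distal medians at 15 and 4. No paired analysis was possible because all libraries belong to 1 group. Depth is unknown, so a site missing from the shorter list is not shown to be closed.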
